A study of Drosophila melanogaster with 12 samples.

Results

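The genes described here are those whose level was much higher in spermatogonia than in spermatocytes of the Drosophila melanogaster testis and whose 3′ extension also differed between these cell types. A gene was a member if its level in spermatogonia (SG) was 10 or more and at least 4 times its level in spermatocytes (SC). The members were thus chosen by the authors' gene levels in SG and SC. The rule held for 101 of the 751 genes in the authors' deposited table of SG against SC (13.4%). Those levels are given below as a description, without a test, and the same holds for every other value of the SG and SC comparison.

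The series holds 12 RNA sequencing libraries in 5 groups. SG holds mitotic and SC meiotic germ cells, both cut by laser out of the testes of wild-type flies, in 3 libraries per group. The other groups are whole mutant testes in which most germ cells are arrested in the mitotic stage, in 2 libraries per group. SG-tut carries the allele tut3. SG-bam carries bamBG over bamΔ86, and SG-bgcn carries bgcn20093 over bgcnQS2. These testes still contain somatic cells. Fly ages are not given in the labels. Low-input full-length cDNA was used for SG and SC, and bead-selected mRNA of whole testes for the mutants, so genotype, dissection and library kit cannot be told apart between the mutants and SC.

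Spermatogonia are the dividing descendants of the germline stem cells. After a fixed series of mitoses they stop dividing and become spermatocytes, which grow, switch on a large testis programme of transcription and enter meiosis. The products of bam, bgcn and tut act together to end the mitotic stage. A messenger RNA can be cut and polyadenylated at more than one place, and a more distal cut leaves a longer 3′ untranslated region (3′ UTR) that can carry further sites for RNA-binding proteins and microRNAs. In Drosophila, short 3′ UTRs are a known feature of the testis.

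Each row of a table gives the authors' average level of a gene and of 1 stretch at its 3′ end, called the extension, in both groups. The extension share expresses the level of the extension in percent of that of the gene and stops at 100% where the extension is the higher. No source names the unit of these levels or says whether they are scaled by length, so levels are compared between groups within a gene. The tables hold no values per library, so no spread between replicates can be given. Every listed row had P below 0.05, an extension level that differed more than 2 times, and a share that moved the same way as the extension. A member with a higher share in SG therefore had to have a larger SG to SC ratio in its extension than in its gene. FDR is the authors' adjusted p-value. Whether it tests the extension or its share is not named. A gene was counted as called at an FDR of 0.05 or less. Low FDR values also occurred where the share hardly differed. CG13631 had an FDR of 0.00362 in the SG table while its share went from 68.1% to 68.4%. For YT521-B the FDR was 1.07e-37 in the SG-bgcn table, where the share rose from 22.3% to 24.1%. A call with a higher share gives the direction of the share and is not read as a significant share change. In tissue samples of this kind fewer cells of a type and less RNA per cell cannot be told apart.

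Gene levels of the 101 members ran from 10.3 to 9303 in SG, with a median of 43.9, and from 0.32 to 989.9 in SC, with a median of 5.81. Over all 751 rows the medians were 15.9 in SG and 15.1 in SC. The median ratio of SG to SC was 8.56 among the members, against 1.38 over all rows. A ratio of at least 4 was held by 158 of the 751 rows (21.0%), and 101 of these also reached the minimum level. The largest ratio was that of CG44476, with an SC gene level of 2.15 and an SG gene level of 153.9 (71.6 times, authors' deposited table). It was followed by ogre, which encodes an innexin of gap junctions, with 0.69 and 44.5 (64.5 times, authors' deposited table). Next came CG14984 with 8.93 and 509.6, CG14545 with 6.47 and 354.5, and the adhesion protein gene Fas1 with 1.06 and 53.8 (authors' deposited table). The Cdc25 phosphatase gene stg, which triggers entry into mitosis, had a level of 0.57 and 23.5 (41.3 times, authors' deposited table). The SC level was below 1 for 10 of the members, among them stg, ogre, YT521-B and Naam, and their SC shares rest on little signal. At the edge of the level minimum, CG13631 (10.3), abd-A (10.3), CG32000 (10.5), CASK (10.8) and CG42684 (10.8) lay just inside, and CG5599 (9.79), Lsd-2 (9.52), kibra (9.08), cwo (8.46) and CG7627 (8.43) just outside, by their SG gene level (authors' deposited table). At the edge of the ratio, vir-1 (4.003), eIF4G (4.10), zfh1 (4.17), HmgZ (4.30) and Aats-glupro (4.35) lay inside, and Prosalpha4 (3.96), Sam-S (3.93), CG8121 (3.90) and sxc (3.87) outside.

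**Figure D1:**
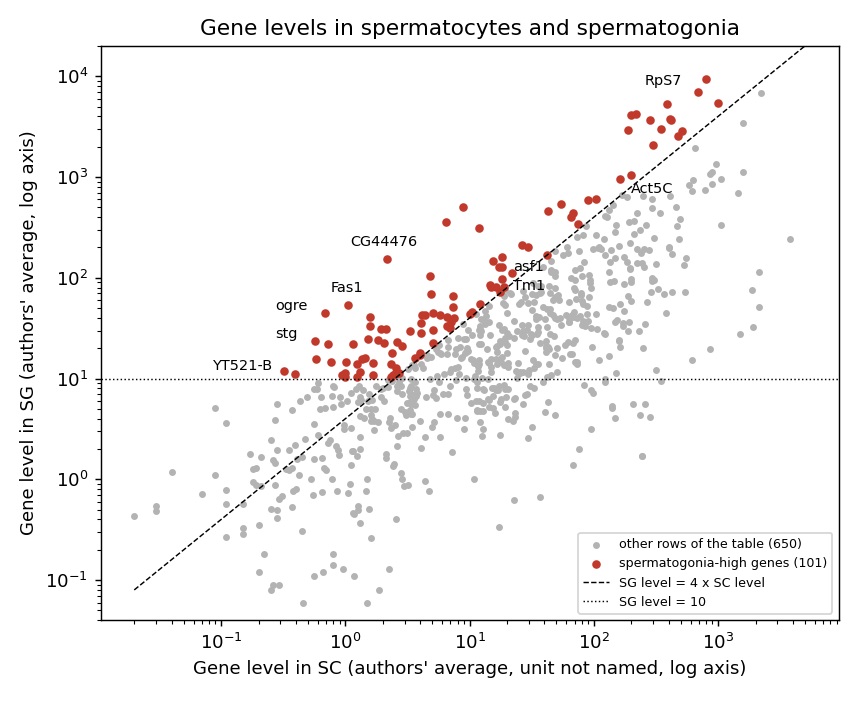
Gene level in SC (x axis) against SG (y axis) for the 751 rows of the SG table, as the authors' group averages on log axes. The 101 spermatogonia-high genes (red) lie above both the line of 4 times the SC level (dashed) and the level of 10 (dotted), from RpS7 at 9303 down to CG13631 at 10.3.

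All 101 members were called (authors' deposited table), 99 with the higher extension share in SG and 2 with the lower share. Over all rows the corresponding shares of calls were 88.5% and 7.86%. The rule used this contrast, so nothing is read from the difference. The median extension level of the members was 0.0651 in SC and 2.17 in SG, a median ratio of 35.5, against 22.0 over the 748 rows with an SC extension level above 0. The median extension share went from 0.970% in SC to 3.32% in SG, against 0.917% and 11.2% over all rows. The median ratio of shares was 3.70 among the members and 9.93 over all rows. The share is divided by a gene level chosen to be high in SG, so nothing is read from the smaller ratio. In 67 of the members (66.3%) the SC extension level was below 0.1, so most SC shares rest on little signal.

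Cytosolic ribosomal protein genes made up 12 of the 15 members with an SG gene level of 1000 or more. All 12 that the table listed, of 85 on the list, met the rule. All 12 were called with the higher share in SG, as were 99 of the 101 members and 88.5% of all rows. The median gene level of the 12 was 415.0 in SC and 3937 in SG, a median ratio of 10.8. RpS7, of the small subunit, had the highest listed level, 802.7 in SC and 9303 in SG (authors' deposited table). RpL13, of the large subunit, had the largest ratio of the list, with 198.6 and 4107 (20.7 times, authors' deposited table). Their extension shares were minute, at 0.0121 to 0.0840% in SG. The extension share of RpS26 was 0.0134% in SC and 0.0840% in SG (FDR 2.55e-30, authors' deposited table), and its 910 bases lie wholly in the annotated 3′ UTR. That of RpL37a, whose identifier now carries the symbol RpL37-1, was 0.00253% and 0.0360% (FDR 7.44e-16, authors' deposited table). That of RpL10 was 0.00338% and 0.0390% (FDR 2.52e-18), and that of RpL8 was 0.0214% and 0.0554% (FDR 3.18e-12, authors' deposited table). For RpS25 and RpL17 the share changed less than 1.5 times, from 0.0152% to 0.0208% and from 0.0324% to 0.0464% (authors' deposited table). The SG to SC ratio was 10.05 for the gene and 13.8 for the extension of RpS25, and 15.4 and 22.0 for RpL17. Ribosomal protein genes can share reads with paralogues and pseudogenes, and how the authors assigned such reads is not stated.

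Other members serve protein synthesis. CG7637, which the reference names Nop10, a component of the ribonucleoproteins that modify ribosomal RNA, had an SC gene level of 347.6 and an SG gene level of 2976 (authors' deposited table). The DEAD-box helicase gene pit, of the nucleolus, had 4.12 and 42.6, and eIF4G, the scaffold of the cap-binding complex, 17.6 and 72.03 (authors' deposited table). bic, the beta subunit of the nascent polypeptide-associated complex, had 199.1 and 1059, and the glutamyl-prolyl-tRNA synthetase gene Aats-glupro 10.1 and 43.9 (authors' deposited table). CG10463, named Dus3 in the reference after its tRNA dihydrouridine synthase, had 1.82 and 23.9 (authors' deposited table). Extension shares in SG were below 3% in all 6 of these genes. The largest ratio of shares among them was that of CG10463, from 0.122% to 2.68%, and Aats-glupro went from 0.0925% to 1.28% (authors' deposited table). Of the list of ribosome biogenesis genes, 4 of 41 were listed and 2 were members, and of the translation factors 4 of 42 were listed and 1 was a member.

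Of the 6 metabolic enzyme genes, Mdh1, Taldo and Gapdh2 had a small share at a high level. The cytosolic malate dehydrogenase gene Mdh1 had an SC gene level of 54.7 and an SG gene level of 541.1, the transaldolase gene Taldo of the pentose phosphate pathway 42.8 and 461.9, and the glycolytic Gapdh2 68.0 and 444.5 (authors' deposited table). Their extension shares in SG were 0.255%, 0.199% and 0.567% (authors' deposited table). Ahcy13, the adenosylhomocysteinase of the methylation cycle, had a larger share, 0.418% in SC and 2.17% in SG (FDR 5.32e-18, authors' deposited table). The nicotinamidase gene Naam stood apart, with 20.3% and 53.3% at gene levels of 0.32 and 11.9 (authors' deposited table). Gapdh2 and srl, the fly PGC-1 homologue that drives mitochondrial gene expression, were the 2 members among 5 listed genes of the 64 on the mitochondria and energy list. For srl the gene level was 5.08 in SC and 30.5 in SG and the share 0.553% and 2.13% (authors' deposited table).

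A role in transcription or chromatin was given, after the values were seen, to 16 members. All 16 were called with the higher share in SG, as were 99 of the 101 members and 88.5% of all rows. Such genes were not counted over all rows. Their median share was 1.57% in SC and 9.57% in SG. The histone H3-H4 chaperone gene asf1 had the largest ratio of shares of all members, 27.5 times, from 0.229% to 6.29% at gene levels of 18.2 and 162.6 (FDR 3.67e-26, authors' deposited table). Its extension spans chromosome 3L from 19620033 to 19620302 (dm6, plus strand) and all 270 bases lie in the annotated 3′ UTR. Dsp1, an HMG-box corepressor, came next with 1.44% and 38.6% (26.8 times), and the Hox gene abd-A had 0.491% and 9.68% (authors' deposited table). The SG shares of asf1 and abd-A lay below the SG median of all rows, 11.2%, and that of Dsp1 above it. For fs(1)h, a BET bromodomain protein, the share went from 5.0% to 61.3%, and for Ssdp, a partner of the Chip cofactor, from 6.85% to 59.7% (authors' deposited table). The LIM-only gene Bx had 1.27% and 11.5% and the HMG-box gene HmgZ 2.40% and 9.06% (authors' deposited table). The nuclear receptor genes Eip75B and usp, both of the ecdysone response, had 16.8% and 30.6%, and 1.69% and 3.64% (authors' deposited table). Their corepressor Smr had 4.21% and 9.46% at gene levels of 4.80 and 104.7 (authors' deposited table). Gene levels of Eip75B and Smr differed more than their shares did, as at the median of all members (8.56 times for gene level, 3.70 times for share). Smaller shares belonged to p53, with 0.274% and 1.01%, to the TFIID subunit gene Taf12, with 0.164% and 0.878%, and to RpII140, the second largest subunit of RNA polymerase II, with 0.400% and 1.53% (authors' deposited table). On the list of histones and chromatin, 5 of 58 genes were listed and HmgZ was the 1 member.

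Of RNA-processing genes 3 were members. The nuclear m6A reader gene YT521-B had an SC gene level of 0.39 and an SG gene level of 11.2 and a share of 22.8% and 50.5% (FDR 1.06e-41, authors' deposited table). Acn, an RNA-binding protein that associates with the exon junction complex, had shares of 1.90% and 8.71% (authors' deposited table). Fip1, of the cleavage and polyadenylation machinery itself, had a gene level of 16.3 and 81.6 and shares of 0.489% and 1.53% (authors' deposited table). It was the only member among 6 listed genes of that list's 34. The list of splicing and RNA-binding regulators had 8 listed genes of 56 and 0 members, and the list of germline stem cell and spermatogonial regulators 10 of 53 and 0 members. The summed gene level of those 10 was 587.4 in SC and 224.1 in SG, with 6 of them higher in SG.

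On the cell cycle and spindle list 2 of 51 genes were listed, and stg was the 1 member. Its extension share was 1.22% in SC and 15.4% in SG (FDR 3.38e-18, authors' deposited table). The septin gene pnut, needed for cytokinesis, had a gene level of 7.36 and 66.4 and a share of 0.324% and 1.33% (authors' deposited table). Act5C, a cytoplasmic actin, had 163.0 and 955.7 in gene level and 0.112% and 0.190% in share (authors' deposited table). The list of replication and repair genes had 2 of 46 genes listed, the lists of chaperones and of nuclear transport had 0 listed of 46 and 43, and none of these lists had a member. The proteasome, ubiquitin and SUMO list had 6 of 57 listed and 0 members, and the list of signalling ligands, receptors and effectors 4 of 79 and 0 members. Of the small RNA pathway 2 of 33 genes were listed and 0 were members.

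The median share in SG was 39.3% over 5 adhesion, matrix and junction genes and 17.9% over 8 signalling genes, roles that were given after the values were seen. All 5 adhesion, matrix and junction genes had a share of at least 27.5% in SG, at SG gene levels of 10.8 to 53.8. Of all rows, 52.5% had an SG share of at least 10% and 25.8% one of at least 50%. The share of Fas1 was 17.1% in SC and 63.2% in SG (FDR 8.85e-98, authors' deposited table), the lowest FDR of the members. Fas2, an immunoglobulin-type adhesion protein, had the longest extension of the members, 7300 bases on chromosome X from 4132865 to 4140164, with shares of 14.9% and 36.0% (authors' deposited table). The scaffold protein gene CASK had 3.50% and 27.5%, ogre 12.5% and 39.3%, and the perlecan gene trol, of the basement membrane, 59.4% and 67.0% (authors' deposited table). Among 8 signalling genes, wdb, a regulatory subunit of protein phosphatase 2A, had 6.51% and 100%, and kek1, a membrane inhibitor of the EGF receptor, 18.1% and 100% (authors' deposited table). For wdb the extension level was 31.7 and the gene level 28.1 in SG, and for kek1 13.2 and 10.9 (authors' deposited table). Only zfh1 and CG32000 also reached 100%, with extension levels of 27.4 and 15.8 at gene levels of 11.3 and 10.5 (authors' deposited table). In these 4 genes the stretch called the extension was listed at a higher level than the gene as a whole. The Tec kinase gene Btk29A had 14.7% and 85.8%, Pka-C1, a catalytic subunit of protein kinase A, 4.15% and 11.3%, and CaMKI 8.63% and 22.9% (authors' deposited table). The Btk29A extension holds the annotated microRNA gene mir-2b-1 on the same strand.

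Some members are also markers of somatic cells. On the list for cyst, hub and other somatic testis cells 8 of 48 genes were listed, and zfh1, kek1 and abd-A were members. The summed gene level of those 8 was 150.5 in SC and 48.7 in SG, although 5 of them were higher in SG. Levels of zfh1, kek1, abd-A and CadN were each higher in SG. The lower sum thus comes from the remaining listed genes dally, pnt, robo1 and sli. On the list for muscle sheath, pigment, tracheal and haemocyte cells 5 of 51 were listed, all higher in SG, and Act5C, Tm1 and trol were members. Their summed gene level was 184.6 in SC and 1080 in SG, and 21.6 and 124.2 without Act5C, which most cells use. Tropomyosin gene Tm1 had a gene level of 18.2 and 97.2 and the transcription factor gene zfh1, of cyst stem cells, 2.70 and 11.3 (authors' deposited table). Of the other defining markers, CadN had 2.34 and 3.21 and the collagen gene Cg25C 0.56 and 7.94, both listed but not members (authors' deposited table). Genes for tj, eya, upd1, Fas3, Mhc, Act57B, vkg and Hml were not listed, the accessory gland, fat body and gut list had 0 of 34 genes listed, and no listed marker was at 0. The part of somatic cells in the member levels was not tested. Of the spermatocyte list, aly had 72.7 in SC and 14.1 in SG and fzo 244.8 and 1.71 (authors' deposited table), and 0 of its 3 listed genes, of 41, were members. The germline genes vas, nos, bam and bgcn were not listed.

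No role was given to the other 40 members, most of them known by a CG number alone. Their median share was 1.0% in SC and 3.19% in SG, and their median extension was 400 bases long. The highest listed gene level among them was that of CG41128, with 298.4 in SC and 2103 in SG (authors' deposited table). dj-1beta, a homologue of the human redox protein DJ-1, had 104.2 and 603.8 in gene level and 0.0522% and 0.226% in share (authors' deposited table). CG1518, named Stt3A in the reference after a catalytic subunit of the oligosaccharyltransferase, had 7.12 and 36.8, and 0.248% and 1.95% (authors' deposited table). CG44476, CG14984 and CG14545 were picked for the highest gene ratios here, so nothing is read from their smaller ratios in share. The median ratio of all members was also smaller in share (3.70) than in gene level (8.56). Shares of these 3 genes were 1.12% and 1.44%, 0.475% and 1.16%, and 0.471% and 0.850%, and all 3 extensions lay downstream of the annotated gene (authors' deposited table). For hdc, which is known from imaginal progenitor cells, the ratio in share was the larger, with gene levels of 14.9 and 81.6 and shares of 1.62% and 17.9% (FDR 3.81e-72, authors' deposited table). Share ratios of 10 or more were also found for CG13185, from 1.61% to 22.0%, CG10195, from 0.50% to 5.73%, CG31705, from 1.71% to 19.2%, and CG8326, from 0.0773% to 0.790% (authors' deposited table). CG12290 had a share of 29.9% and 63.9%, with an extension of 1985 bases (FDR 2.64e-54, authors' deposited table).

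How far the extension's ratio exceeded that of the gene varied between members. Of the 99 members with the higher share in SG, 21 had a share less than 2 times that of SC, 44 between 2 and 5 times, and 34 at least 5 times. These are 20.8%, 43.6% and 33.7% of the members, against 6.52%, 18.8% and 65.9% of all rows, and the rule bears on this difference through the gene level. The 11 with less than 1.5 times (10.9%, all rows 3.2%) include CG13631 (68.1% and 68.4%), CG44532 (10.6% in both groups), trol and Tm1 (authors' deposited table). In CG13631 and CG44532 the extension level was higher in SG while the share hardly differed. The 2 members with the lower share in SG were CG15237, from 0.283% to 0.00200% (FDR 0.0330), and CG7741, from 17.4% to 0.259% (FDR 0.0390, authors' deposited table). Their extension levels fell from 0.212 to 0.00688 and from 0.576 to 0.0763 while their gene levels were 4.60 and 8.86 times higher in SG. Both extensions lie past the annotated end of the gene, with 1440 bases between gene and extension for CG15237 and 1990 for CG7741. That of CG7741 ends directly before CG7745 on the same strand. Whether these detached stretches belong to transcripts of the named genes was not tested.

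**Figure D2:**
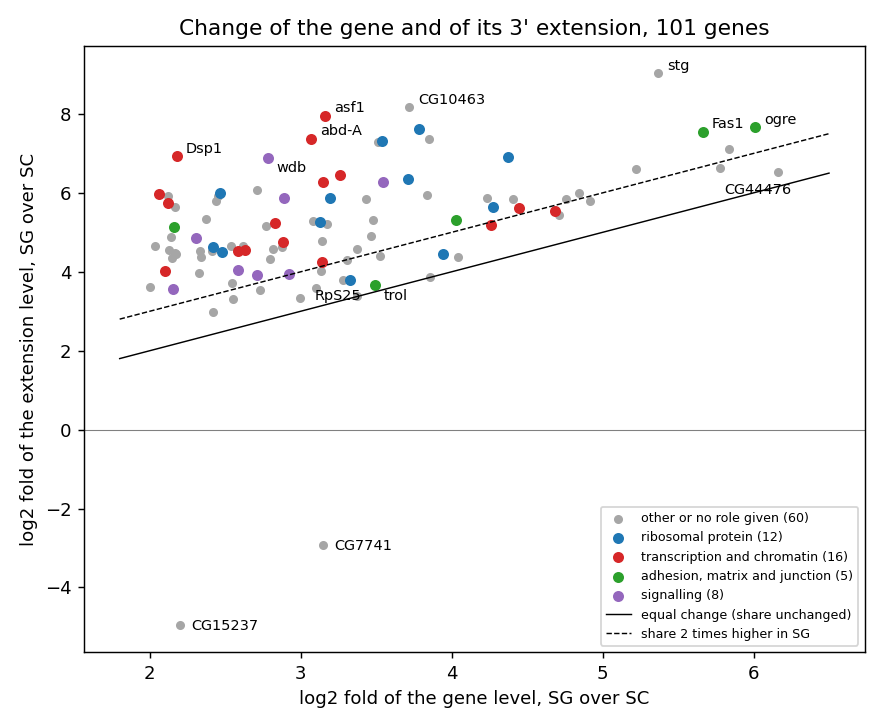
Log2 fold of the gene level (x axis) and of the extension level (y axis), SG over SC, for the 101 members, coloured by role. Points on the solid line have equal folds and points above the dashed line have a share more than 2 times higher in SG. CG15237 and CG7741 are the 2 points below 0.

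The share in SG was smaller in members with a higher listed level. In the 15 members with an SG gene level of 1000 or more the median share was 0.0114% in SC and 0.0464% in SG. It was 0.274% and 0.878% in the 21 members from 100 to under 1000, 0.970% and 2.67% in the 29 from 30 to under 100, and 3.83% and 15.5% in the 36 under 30. Spearman's rho between SG gene level and SG share was -0.79 across the 101 genes and -0.76 across all 751. The share is calculated with that gene level, and genes are not independent replicates. The extension level itself showed rho = -0.10 with the gene level among the members, and its median in SG lay between 1.47 and 2.78 in all 4 level classes. A share of at least 50% in SG was found in 13 members (12.9%) and in 25.8% of all rows. A share below 0.1% was found in 15 members (14.9%) and in 3.86% of all rows. These 15 were the 12 ribosomal protein genes, CG41128, bic and CG15237.

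The extensions of the members lay much where those of all rows lay. Identifiers of 96 members matched the Ensembl annotation, and 5 (RpL19, Fas1, trol, CG7845 and fu2) did not. The extension lay inside the annotated gene in 21 members (20.8%, all rows 21.7%), crossed its annotated end in 36 (35.6%, all rows 35.0%) and lay wholly downstream in 39 (38.6%, all rows 41%). The gene's own annotated 3′ UTR was touched in 54 (53.5%, all rows 53.1%), and 15 extensions lay wholly within one. Median length was 600 bases, from 200 to 7300, against 575 over all rows. After Fas2 the longest were Tm1 (4200 bases), fs(1)h (4050), RpL10 (3930) and wdb (3380), and the shortest CG8326 (200), CG4455, Gapdh2 and Taf12 (220 each). The wdb extension spans chromosome 3R from 27561662 to 27565041 (dm6, minus strand), and 3367 of its 3380 bases are annotated 3′ UTR. Median share in SG was 6.29% for extensions inside the gene, 9.57% for those crossing its end and 1.28% for those downstream, against 30.4%, 29.0% and 2.97% over all rows. On chromosome X lay 23 members (22.8%, all rows 22.0%), and on 3R 28 (27.7%, all rows 21.7%). Chromosome 2L held 20 (19.8%, all rows 15.7%), 2R 15 (14.9%, all rows 19.2%), 3L 12 (11.9%, all rows 18.9%) and chromosome 4 held 3 (2.97%, all rows 2.53%).

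Several extensions adjoin or enter other genes, and reads of both cannot be told apart there. Exons of another annotated gene were touched in 8 members (7.92%, all rows 11.6%), each on the same strand. These were Act5C (CG4020), RpS21 (CG2991), CG7637 (wde), Tina-1 (CG2811), Irc (CG8907), CASK (lncRNA:CRG), Btk29A (mir-2b-1) and CG44532, whose extension of 2060 bases enters mei-P26. Annotated transposons were touched in 10 members (9.9%, all rows 9.72%), and how reads of repeats were assigned is not stated. The 10 were RpL10, Fip1, eIF4G, cN-IIIB, srl, gus, Pvf1, CaMKI, CG7369 and CG32000. In 11 of the 96 annotated members (11.5%, all rows 15.3%) the extension ended within 10 bases of the next annotated gene, in all 11 on the same strand. The 11 were Ssdp, CG12290, RpL8, scramb1, CG2839, CG7246, Acn, Mdh1, CG7044, RpS25 and CG7741. One of these joins 2 members. The extension of CG7246 fills the whole gap of 323 bases on chromosome X, from 9078500 to 9078822, between CG7246 and CG44325 on the minus strand. CG44325 had an SC gene level of 64.9 and an SG gene level of 399.0, and CG7246 3.63 and 15.9 (authors' deposited table). Whether the authors counted by strand is not stated in the labels.

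Of the 101 members 41 were listed in at least 1 mutant table, with 12 in 1, 9 in 2 and 20 in all 3. The remaining 60 were in none, which says only that they did not pass the selection of those tables. SG-tut listed 30, SG-bam 32 and SG-bgcn 28. All comparisons share the SC libraries, whose gene level chose the members, so the following counts describe the mutant levels and are no independent support. The gene level was at least 4 times that of SC in 27 of 30 members in SG-tut (26.5% of all rows of that table). SG-bam had 27 of 32 such members (27.4% of all rows), and SG-bgcn had 24 of 28 (28.2% of all rows). Median ratios were 10.8, 10.2 and 10.5, against 1.24, 1.38 and 1.39 over all rows of the 3 tables. The members under 4 times were CG2839, hdc and HmgZ in SG-tut, Fip1, zfh1, dj-1beta, hdc and CG2839 in SG-bam, and CG2839, hdc, HmgZ and zfh1 in SG-bgcn.

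In SG-tut 29 of 30 members had an FDR of 0.05 or less and a higher extension share than SC (71.9% of all rows). The same held for 30 of 32 members in SG-bam (73.5%) and for 27 of 28 in SG-bgcn (71.0%). No member was called lower, against 25.2%, 22.1% and 23.5% of all rows. The SC libraries are those of the SG table, where 99 of the 101 members already had the higher share. Nothing is therefore read from the difference to all rows. Those that missed the threshold were RpS25 in SG-tut (FDR 0.0635), zfh1 and Ahcy13 in SG-bam (FDR 0.0556 and 0.0596), and CG7246 in SG-bgcn (FDR 0.0628, authors' deposited tables). The threshold was missed narrowly in these, and none of them had a lower share than SC. The stretch measured was not always the same. The extension had the coordinates of the SG table in 6, 2 and 6 members and overlapped it with other ends in the remaining 24, 30 and 22. The extension of hdc was 1750 bases in the SG table and 10320, 10280 and 10230 in the SG-tut, SG-bam and SG-bgcn tables, that of Tm1 4200 and 11060, 12710 and 12550, and that of jbug 510 and 1070, 5270 and 5280. Shares of these 3 genes are therefore not compared between SG and the mutants. The identifier of hdc is now listed under the symbol heca, and the name in the table's annotation column, histidine decarboxylase, is that of another gene.

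**Figure D3:**
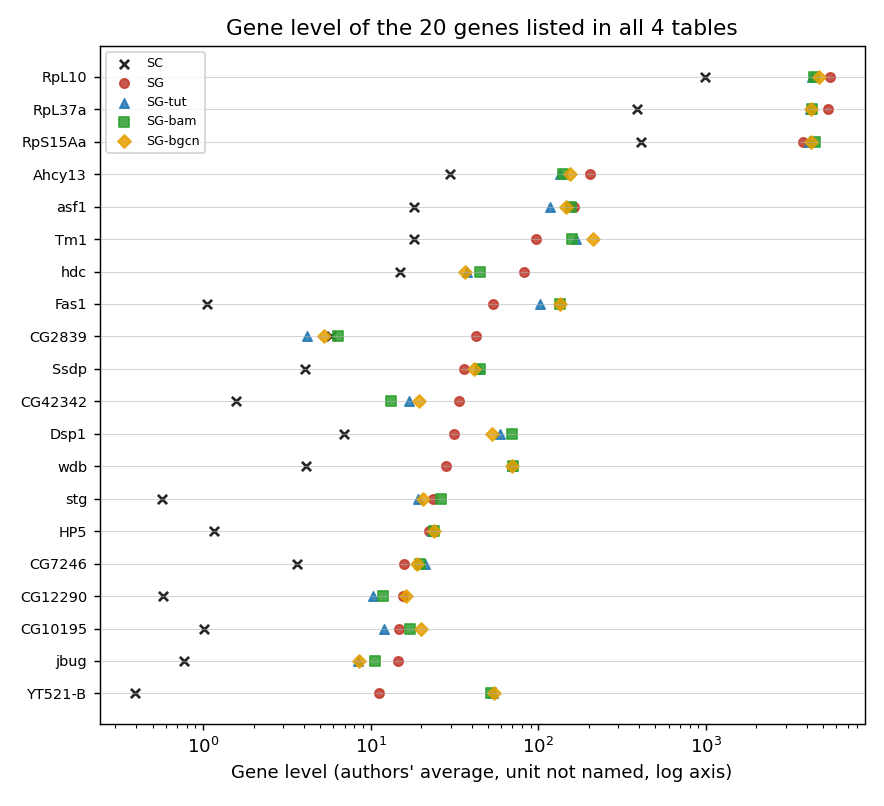
Gene level (x axis, authors' group averages, log axis) of the 20 members listed in all 4 tables, in SC (crosses), SG (circles) and the 3 mutants. SC is the lowest group in every gene but CG2839, whose mutant levels of 4.15 to 6.40 lie around its SC level of 5.81.

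In the 20 members listed in all 4 tables the SG gene level lay above that of all 3 mutants in 8, below all in 9 and between them in 3. The 3 ribosomal protein genes among them were far above SC in every mitotic group. RpS15Aa had 410.9 in SC, 3767 in SG and 4129, 4472 and 4209 in SG-tut, SG-bam and SG-bgcn (authors' deposited tables). RpL37a had 388.8 in SC, 5352 in SG and 4146, 4315 and 4207 in the same mutants (authors' deposited tables). For RpL10 the levels were 989.9, 5475 and 4277, 4404 and 4698 (authors' deposited tables). The levels of stg were 23.5 in SG and 19.3, 26.1 and 20.4 in the mutants, against 0.57 in SC (authors' deposited tables). HP5, a heterochromatin protein gene, had 22.2 in SG and 23.2, 23.8 and 24.0, against 1.16 in SC (authors' deposited tables). For stg and HP5 the dissected cells and the 3 mutants thus lay close together. Levels in SG were lower than in the mutants for YT521-B, with 11.2 against 53.7, 52.1 and 54.4, and for Fas1, with 53.8 against 102.2, 134.7 and 134.5 (authors' deposited tables). They were higher in SG for hdc, with 81.6 against 37.3, 45.0 and 36.7 (authors' deposited tables). Dissection and kit differ as well as genotype, and without libraries these differences were not tested.

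**Figure D4:**
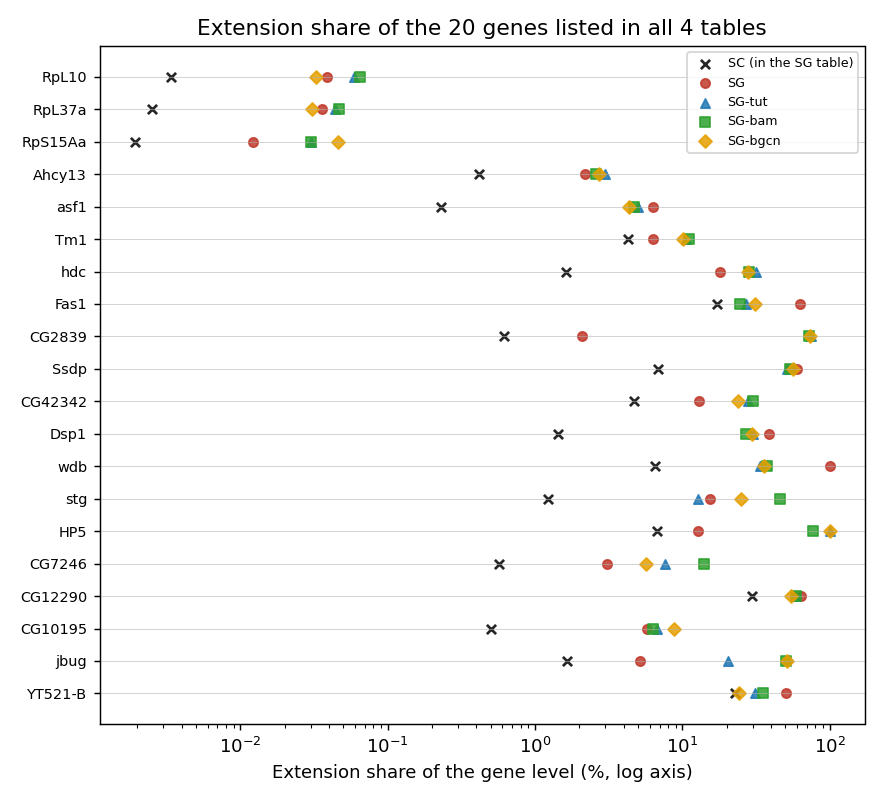
Extension share of the gene level (x axis, %, log axis) for the same 20 members, with SC as given in the SG table. HP5 and CG2839 have mutant shares far above SG, and wdb and Fas1 have SG shares above those of all 3 mutants.

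Without hdc, Tm1 and jbug, the SG share of the other 17 lay above all 3 mutants in 7, below all in 7 and between them in 3. Among these 17, only CG2839 and CG7246 had the coordinates of SG in all 3 mutants, so most of these positions compare unlike stretches. The extension of RpS15Aa was 1490 bases in SG and 380, 380 and 220 in SG-tut, SG-bam and SG-bgcn. That of Dsp1 was 1650 bases in SG and 780, 790 and 780 in the same mutants. For HP5 the share was 12.8% in SG and 100%, 76.7% and 100% in SG-tut, SG-bam and SG-bgcn (authors' deposited tables). The extension of HP5 was the same 330 bases in SG, SG-tut and SG-bgcn, on chromosome X from 11456780 to 11457109, and its level was 2.84 in SG against 31.9 and 34.0 in those mutants (authors' deposited tables). CG2839 had the same 528 bases in all 4 tables, with a share of 0.617% in SC, 2.07% in SG and 74.2%, 72.6% and 73.5% in the mutants (authors' deposited tables). Both parts of that ratio differed between SG and the mutants. Its gene level was 42.6 in SG and 4.15, 6.40 and 5.30 in the mutants, and its extension level 0.881 in SG and 3.08, 4.64 and 3.90 (authors' deposited tables). The annotated gene lncRNA:CR45369 begins at the next base past this extension, on the same strand. In the other direction, wdb had 100% in SG and 33.5%, 37.8% and 35.6% in the mutants, over extensions of 3380, 3380, 3360 and 3380 bases (authors' deposited tables). Its extension level was 31.7 in SG and 23.5, 26.6 and 24.8 in the mutants, while its gene level was 28.1 in SG and 70.03, 70.5 and 69.8 (authors' deposited tables). For Fas1 the share was 63.2% in SG and 26.9%, 24.7% and 30.9% in the mutants, with extension levels of 34.0 and 27.5, 33.3 and 41.6 (authors' deposited tables). Ssdp and CG12290 had high shares in every mitotic group, 59.7% in SG and 51.4%, 53.3% and 56.0% for Ssdp, and 63.9% and 58.2%, 59.4% and 54.2% for CG12290 (authors' deposited tables). The SG extensions of both end directly before another annotated gene on the same strand. asf1 had 6.29% in SG and 5.03%, 4.68% and 4.31%, against 0.229% in SC as given in the SG table (authors' deposited tables). Over shorter or longer stretches than the 620 bases of SG, stg had 12.8%, 46.0% and 24.9% in SG-tut (780 bases), SG-bam (350) and SG-bgcn (470, authors' deposited tables). The remaining shares of the 20 genes are shown in the plot of extension shares.

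The 21 members listed in 1 or 2 mutant tables include 5 ribosomal protein genes. RpS7 had a gene level of 6044 and a share of 0.0623% in SG-bam (FDR 1.72e-05, authors' deposited table). RpS26 had shares of 0.0321% in SG-tut and 0.0616% in SG-bam, below the 0.0840% of SG (authors' deposited tables). Among the somatic marker genes, zfh1 had gene levels of 9.99 in SG-bam and 8.98 in SG-bgcn, with shares of 41.2% and 44.3% (authors' deposited tables). For kek1 the gene level was 9.87 and the share 53.8% in SG-bam (FDR 0.0277, authors' deposited table). Both genes thus had mutant levels near those of SG, and lower shares than the 100% listed there. Act5C had gene levels of 1712 in SG-tut and 2055 in SG-bgcn, against 955.7 in SG (authors' deposited tables). fs(1)h had a share of 25.3% in SG-bam, over an extension of 1000 bases against 4050 in SG, and Naam 37.0% in SG-tut and 34.3% in SG-bgcn, over 200 bases against the 340 of SG (authors' deposited tables). HmgZ had 10.6% and 12.0% in the same 2 mutants against 9.06% in SG (authors' deposited tables). The extensions differed in length for zfh1 (1350 bases in SG, 1300 and 1280), kek1 (3370 and 2090), RpS26 (910, 980 and 640) and HmgZ (500, 320 and 490) as well.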

How the data were processed

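RNA sequencing of 12 Drosophila testis libraries was compared by the authors in 4 deposited tables, each setting 1 mitotic group against SC. Per the submitters' processing notes, the tools were DESeq2, Cuffdiff 2.2.1, Cufflinks 2.2.1, TopHat2 2.1.0, Trimmomatic 0.33, FastQC 0.11.3 and CASAVA, and the build dm6. Per the file headers, the deposited levels are averages per group (a score whose unit is not named), the deposited share is a fraction (printed as percent), the deposited folds are log2, and p-values and FDR are the authors' own. To within 0.1%, each deposited share is the ratio of both levels after 1e-05 is added to each, with a ceiling of 1. Depth per library is unknown.

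Members, ratios, counts and medians were computed with pandas 2.3.3 and placed on Ensembl release 115 (dm6 coordinates, from 1). No test was run, since the tables hold no libraries and the rule used the same contrast. Genes were named by a written rule: the highest levels, largest ratios and share changes, longest and shortest extensions, lower shares, list members, genes in all 4 tables and the edges of the rule, where 1 gene is not reported here. Members, the 20 gene lists and this rule were chosen with earlier results of these data known, and the roles, level classes and further named genes after the values were seen. Selection and placement were tested on simulated rows. Motif searches were not run, as no genome sequence was used here. Alternative thresholds, extension matches and subsets are given in the closing section.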

Additional observations from a re-analysis of the deposited data

How the results depend on the processing

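Other level minimums and a ratio of at least 3 gave 76 to 146 members. At an FDR of 0.01 the higher count was 86 for SG and 27, 24 and 20 for SG-tut, SG-bam and SG-bgcn. Counts of lower members in the mutants were 0 under every setting, and requiring overlap with the SG extension left out none, so these say nothing of stability. With a ratio of at least 8 in place of 4, 53 genes were members, 52 with the higher share in SG and 1 with the lower. The lower count was 0 at an FDR of 0.01 and 4 at a ratio of at least 3. Keeping only extensions with the coordinates of the SG table left 5, 2 and 5 higher members in SG-tut, SG-bam and SG-bgcn, by construction fewer than all. Settings without ribosomal protein genes (89 members) or with a share changed at least 2 times (78 higher) were chosen after seeing the data. No paired analysis was possible because the columns are group averages that carry no replicate number, and leaving out a replicate, a pseudocount and a filter could not be run for the same reason. Depth per library is unknown, and the SC shares rest on the lowest extension levels.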
